A study of Homo sapiens with 6 samples.

Results

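The 48 genes described here encode subunits, activators and assembly chaperones of the human proteasome. They are the genes whose symbol is PSM, then 1 of the letters A to G, then a number, and they were found among 32917 genes in the deposited expression table. Of these, 41 genes held 90 of the 42618 distinct m6A peaks listed for the combined treatment. The authors' comparison of treatments tested 53 peaks of 31 of the genes, out of 19979 peaks in all.

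N6-methyladenosine (m6A) is a methyl mark on messenger RNA, and it was mapped by pulling down RNA fragments with an m6A antibody (IP) and setting them beside the untouched fragments (input). The cells were Kasumi-1, an established acute myeloblastic leukaemia line with the labelled genotype WT. For 24 hours they received 100 uM CoCl2, a hypoxia mimic, together with 10 nM echinomycin, which blocks DNA binding of HIF-1, and 3 IP and 3 input libraries came from 3 biological replicates of this combined treatment. The other arm of the authors' comparison was CoCl2, which both arms share, and no library of CoCl2 without echinomycin was analysed here. A single cell line was used, so the replicates share 1 genetic background.

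The proteasome degrades proteins tagged with ubiquitin. Its core particle is a barrel of outer alpha rings, which gate the entry, around inner beta rings, which cut peptide bonds. A regulatory particle caps the barrel: its ATPases unfold the substrate, and its other subunits bind and remove ubiquitin. Other activators, an inhibitor and a set of chaperones that help to assemble the barrel complete the family.

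The labelled cell type was checked on marker genes in the input libraries, in FPKM (fragments scaled to transcript length and to the mapped fragments of the library). Of 12 Kasumi-1 markers, 9 had a mean of at least 1 FPKM, with summed levels of 177 to 195 FPKM per library, led by MPO at 56.2 FPKM. The granule genes AZU1, PRTN3 and ELANE were below 1 FPKM, at 0.589, 0.266 and 0.0185 FPKM. Markers of other cells were low apart from CD3D at 32.1 FPKM among 4 lymphoid genes, with sums of 30.6 to 35.6 FPKM, and EPCAM at 8.79 FPKM among 4 epithelial genes, with sums of 9.28 to 10.4 FPKM. No fibroblast marker of 2 found and no erythroid marker of 1 found reached 1 FPKM, with sums of 0.656 to 0.714 and 0.0933 to 0.220 FPKM. The part of these genes in the results was not tested.

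The sequences below show the start of the messages that carry a listed peak over their first 50 bases together with GGAC, a common core of m6A sites. RefSeq windows of GRCh38.p14 were matched by symbol to 42 of the 48 genes, and 14 of these had their first 50 transcribed bases wholly inside a listed peak. GGAC was searched on the transcribed strand only, and it was present in 6 of those 14 genes. Its share over all genes with a listed peak at the start was not counted, so nothing is read from this number. Each stretch is 30 bases long, runs 5' to 3' on the transcribed strand, and has GGAC in capitals. Fold enrichment, here and in what follows, is the authors' value per peak of IP over input, with no error attached.
PSMB4, chr1:151399593-151399622, plus strand: agcgtttttggggtcgcggtccGGACtttg
PSMD2, chr3:184299261-184299290, plus strand: gcggagatggaggagggaggccgGGACaag
PSMC6, chr14:52707211-52707240, plus strand: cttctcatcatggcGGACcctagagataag
PSMB10, chr16:67936816-67936845, minus strand: tgaagcctagcagaGGACtttttagctgct
PSMD12, chr17:67366533-67366562, minus strand: tggccgaagcagggGGACagcaagGGACgc
PSMD10, chrX:108091513-108091542, minus strand: aagtagttgctgGGACagcgaaatggaggg
For contrast, the start of PSME4 lies under the 5' UTR peak with the highest fold enrichment among these 14 genes and holds no GGAC in its first 50 bases.
PSME4, chr2:53970964-53970993, minus strand: agagcggccgctgccgccgccaacgaactg

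GGAC stood at like shares at the starts of proteasome genes and of all genes. It was found in the first 50 bases of 10 of 51 windows of these genes (19.6%), against 18.9% of all 35116 windows. Both shares count windows with or without a listed peak. PSMD12 carried it at positions 30 and 40 counted from the start, PSMB4 at position 43, PSMD2 at 44, PSMC6 at 26, PSMB10 at 20 and PSMD10 at 13. The peaks over these starts had fold enrichments of 1.59 for PSMB4, 3.9 for PSMD2, 2.43 for PSMC6, 2.06 for PSMB10, 2.2 for PSMD12 and 2.73 for PSMD10, against 8.07 for PSME4. A match is a description of letters and not a mapped site.

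Proteasome genes were abundant in the input RNA. Of the 48 genes, 45 had a mean of at least 1 FPKM, and the median over all 48 was 18.2 FPKM, against 5.36 FPKM over the 12612 genes of the table that reached 1 FPKM (quartiles 2.42 and 12.4 FPKM). The libraries gave like medians of 18.3, 18.1 and 18.3 FPKM. All levels are per length, so they can be set against each other between genes. Below 1 FPKM were PSMA8, a testis form of an alpha subunit, listed at 0 in all 3 libraries, PSMB11, the beta subunit of the thymic proteasome, at 0.154, 0.114 and 0.290 FPKM, and PSMG4, an assembly chaperone, at 0.614, 0.776 and 0.746 FPKM. Only the input libraries of the combined treatment were used here, so no level was compared between treatments.

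**Figure D1:**
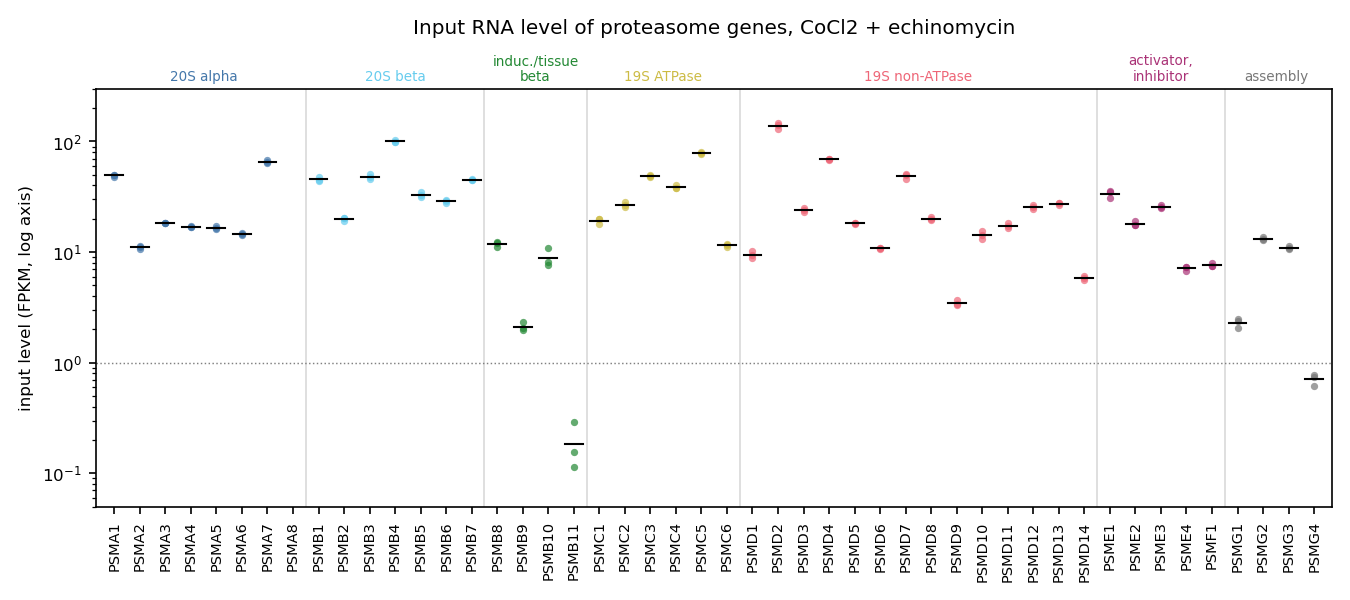
Input level in FPKM on a log axis for each proteasome gene, with 1 point per input library (n = 3), a black bar at the mean and a dotted line at 1 FPKM. PSMD2, PSMB4 and PSMC5 stand highest, PSMB9 and PSMG1 are the lowest above the line, and PSMA8, at 0 in every library, has no point.

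In the alpha ring PSMA7 was highest, at 63.6, 64.9 and 67.9 FPKM, and PSMA2 lowest of those above 1 FPKM, at 10.8, 11.1 and 11.4 FPKM. Their ratio was 5.91 ± 0.0457 (SD, n = 3), although each ring of the barrel holds its alpha subunits in equal number. PSMA1 followed PSMA7 with 49.3 ± 1.38 FPKM, and the remaining 4 lay between 18.3 ± 0.0379 FPKM for PSMA3 and 14.5 ± 0.367 FPKM for PSMA6. Of 6 pairs of neighbours in this order, only PSMA4 and PSMA5 overlapped between libraries, at 17.0 ± 0.204 and 16.6 ± 0.472 FPKM.

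In the constitutive beta ring the highest was PSMB4, a subunit with no active site, at 102, 99.6 and 98.4 FPKM. PSMB2 was lowest, at 19.1, 20.1 and 20.2 FPKM, so that PSMB4 exceeded it 5.06 ± 0.268 times. The 3 catalytic subunits lay between them: PSMB7, with trypsin-like activity, at 44.9 ± 0.440 FPKM, PSMB5, with chymotrypsin-like activity and the main target of bortezomib, at 33.0 ± 1.71 FPKM, and PSMB6, with caspase-like activity, at 28.8 ± 1.18 FPKM. Their ranges did not overlap, whereas PSMB3 and PSMB1, and PSMB1 and PSMB7, did overlap.

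The immunoproteasome subunits, which replace the catalytic subunits in immune and interferon-treated cells, were lower. PSMB8 had 11.2, 12.1 and 12.4 FPKM, PSMB10 7.59, 10.8 and 8.19 FPKM, and PSMB9 1.98, 2.34 and 2.04 FPKM. PSMB8 thus exceeded PSMB9 5.63 ± 0.433 times, and the ranges of these 3 genes did not overlap. PSMB10 had the largest relative spread of the 45 genes that reached 1 FPKM, an SD of 19.1% of its mean, against a median of 3.61%.

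In the regulatory particle, all 6 ATPases differed from their neighbours in the order without overlap of the 3 libraries. PSMC5 was highest, at 80.4, 78.0 and 77.4 FPKM, and PSMC6 lowest, at 11.6, 11.2 and 11.9 FPKM, a ratio of 6.79 ± 0.258. The non-ATPase subunits, counted here with the assembly chaperones PSMD5, PSMD9 and PSMD10, had the widest range. PSMD2, a scaffold that docks ubiquitin receptors and the highest of all 48 genes, had 142, 130 and 146 FPKM, and PSMD9, a chaperone of ATPase assembly, had 3.71, 3.39 and 3.33 FPKM, which gives a ratio of 40.1 ± 3.21. The ubiquitin receptor PSMD4 followed PSMD2 with 69.4, 68.2 and 69.6 FPKM. PSMD14, the deubiquitinase of the particle, was next to lowest with 6.03, 5.62 and 5.89 FPKM, while PSMD7, its partner in the lid, had 49.0 ± 2.93 FPKM.

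Among the activators, PSME1 was highest, at 30.5, 34.8 and 35.9 FPKM, ahead of PSME3, the nuclear activator, at 24.8, 26.5 and 25.7 FPKM. PSME2, which forms a ring with PSME1, had 18.1 ± 0.799 FPKM. PSMF1, an inhibitor of the core particle in vitro, had 8.02, 7.50 and 7.48 FPKM, and PSME4, a large nuclear activator, was lowest at 7.31, 6.80 and 7.27 FPKM. The chaperones PSMG1 and PSMG2 work as a pair, yet PSMG2 had 13.7, 12.9 and 13.1 FPKM and PSMG1 2.04, 2.38 and 2.51 FPKM, a ratio of 5.78 ± 0.795. Along the order of all 45 genes above 1 FPKM, 28 of 44 neighbouring pairs overlapped between libraries.

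Most proteasome messages carried at least 1 listed peak, and the fold enrichment of most peaks was low. A peak was listed for 40 of the 45 genes with at least 1 FPKM (88.9%, exact Clopper-Pearson 95% interval 75.9 to 96.3), against 79.7% of all genes at that level, a share that lies inside the interval. With peaks on another gene's exon left out, the proteasome share was 84.4%, while the share of all genes still counts such peaks. Without a listed peak were PSMA7, PSMB3, PSMB9, PSMD14 and PSME2, and below 1 FPKM PSMA8 and PSMG4. The median fold enrichment of the 90 peaks was 2.74 (quartiles 1.98 and 4.21, range 1.15 to 24.2), against 4.53 over all listed peaks. The peaks were also shorter, with a median of 240 exonic bases against 330. At an input of 10 to 20 FPKM the medians were 2.74 for proteasome peaks and 3.40 for peaks of other genes, and at 20 to 50 FPKM 2.40 and 3.09. They were 1.665 and 4.13 at 1 to 5 FPKM, over 4 proteasome peaks, and 2.475 and 2.79 at 50 to 150 FPKM, over 6. Only at 5 to 10 FPKM was the order reversed, with 5.12 and 3.69, over 11 proteasome peaks that were mostly of PSMF1 and PSME4.

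Most peaks were labelled as untranslated ends of the messages in the deposited annotation. Labelled 3' UTR were 55 of 90 (61.1%), against 42.5% of all listed peaks, 5' UTR 26 (28.9%), against 23.1%, and other exons 9 (10.0%), against 34.4%. The label does not fix the place in the message: a PSMF1 peak labelled 5' UTR (chr20:1183878-1183998) lay downstream of one labelled 3' UTR (chr20:1165315-1165914). PSMC1 held 12 of the 90 peaks, and all but its 5' UTR peak were labelled 3' UTR. An authors' FDR of 0.05 or more was attached to 3 of the 90 peaks (3.33%), against 12.6% of all listed peaks. Of the 90 peaks, 25 overlapped another listed peak of the same gene. In addition, 9 peaks were not peaks of the gene's own message as the tables place them: 5 lay on an exon of another gene, and 4 had most of their bases outside the gene's span.

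**Figure D2:**
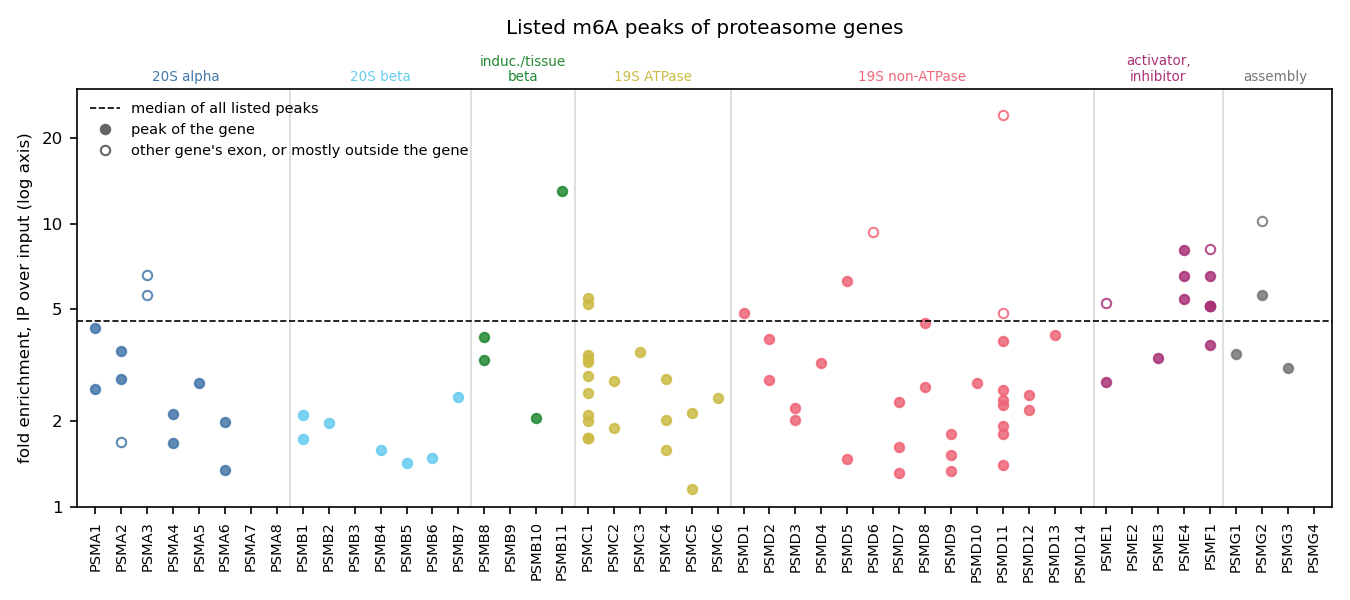
Fold enrichment of IP over input, on a log axis, of the 90 listed peaks by gene, 1 point per peak, with a dashed line at the median of all listed peaks, 4.53. Most points lie below the line, and open points, which stand for the 9 peaks on another gene's exon or mostly outside the gene, include the highest value, 24.2.

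By role, the median fold enrichment was lowest in the constitutive beta ring, at 1.73 over 7 peaks, and was 2.43 over 21 ATPase peaks, 2.44 over 30 non-ATPase peaks and 2.67 over 12 alpha peaks. It was 3.64 over 4 peaks of the immune and thymic beta subunits, 4.53 over 4 peaks of the PSMG chaperones and 5.18 over 12 peaks of the activators and PSMF1. The PSMG chaperones and the group of activators and PSMF1 held all 3 peaks with an authors' FDR of 0.05 or more. These were a PSMG2 peak of 5.59 and PSMF1 peaks of 6.52 and 5.12. Overlapping copies of another PSMF1 peak, also of 5.12, and a PSME1 peak of 5.23 with 2.54% of its bases inside the gene were counted too. The highest values had a limit in their position. The PSMD11 peak of 24.2 (chr17:32443999-32444419) had 9.74% of its bases inside the PSMD11 span, the PSMG2 peak of 10.2 (chr18:12656622-12658134) had 12.8% inside and lay under SPIRE1 on the other strand, and the PSMD6 peak of 9.31 (chr3:64011964-64015982) lay on an exon of PSMD6-AS2, a gene of the other strand. PSMD6 itself had 10.9, 10.6 and 10.8 FPKM. The PSMF1 peak of 8.15 (chr20:1161521-1161697) lay on an exon of ACTG1P3. The PSMB11 peak of 13 rested on a gene at 0.186 FPKM.

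Among peaks inside the gene's own span and on no other gene's exon, in messages above 1 FPKM, PSME4 had the highest, 8.07 in its 5' UTR (chr2:53970574-53970993), and a further one of 5.42 in its 3' UTR (chr2:53864818-53865417). PSMD5, another chaperone of ATPase assembly, had a 3' UTR peak of 6.25 (chr9:120817675-120820978). Strong statistical support came also below the median of all listed peaks, 4.53. The 3' UTR peak of PSMC3 (chr11:47424658-47425589) had a fold enrichment of 3.51, above the proteasome median, and a log10 FDR of -235. At the low end, the 5' UTR peak of PSMC5 had 1.15, and 3' UTR peaks of PSMD7, PSMA6 and PSMD11 had 1.32, 1.35 and 1.4. Peaks in the 5' UTR of PSMD9, PSMB5, PSMD5 and PSMB6 had 1.34, 1.43, 1.47 and 1.49.

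Setting the combined treatment against CoCl2 asks what echinomycin adds to the hypoxia mimic. More proteasome peaks were called higher than lower, whereas over all tested peaks lower calls were the larger share. In the authors' deposited table, 26 of 53 peaks were higher at an FDR under 0.05 (49.1%, exact 95% interval 35.1 to 63.2), against 23.1% of all tested peaks. A further 15 in the authors' deposited table were lower (28.3%, 16.8 to 42.3), against 45.8% of all, and 12 did not pass (22.6%), against 31.1% of all. The intervals cover counting error only and treat peaks as independent, which peaks of 1 gene are not. The 53 peaks had a median log2 fold change of 0.26 (quartiles -0.42 and 0.70), against -0.43 for all tested peaks, in the authors' deposited table. Taken by gene, 16 genes in the authors' deposited table had only higher calls, 8 only lower calls, PSMC1 and PSMD11 both, and 5 had no peak that passed. A like count by gene was not made over all tested genes, so nothing is read from these gene counts.

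Few of the changes were large. Of the 53 peaks, 4 were higher by 2-fold or more in the authors' deposited table (7.55%), against 6.01% of all tested peaks, and 5 were lower by as much (9.43%), against 11.2%, so higher calls did not outnumber lower ones at that size. The 5 lower peaks include 1 PSMC1 site listed as overlapping copies, each with a log2 fold change of -1.34 in the authors' deposited table. The list holds a single value for each peak and none by replicate, so no test of the difference between proteasome peaks and others was made. Its direction, the combined treatment over CoCl2, was read from the table's name. The sources used here do not give whether it was adjusted for a change in input level.

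**Figure D3:**
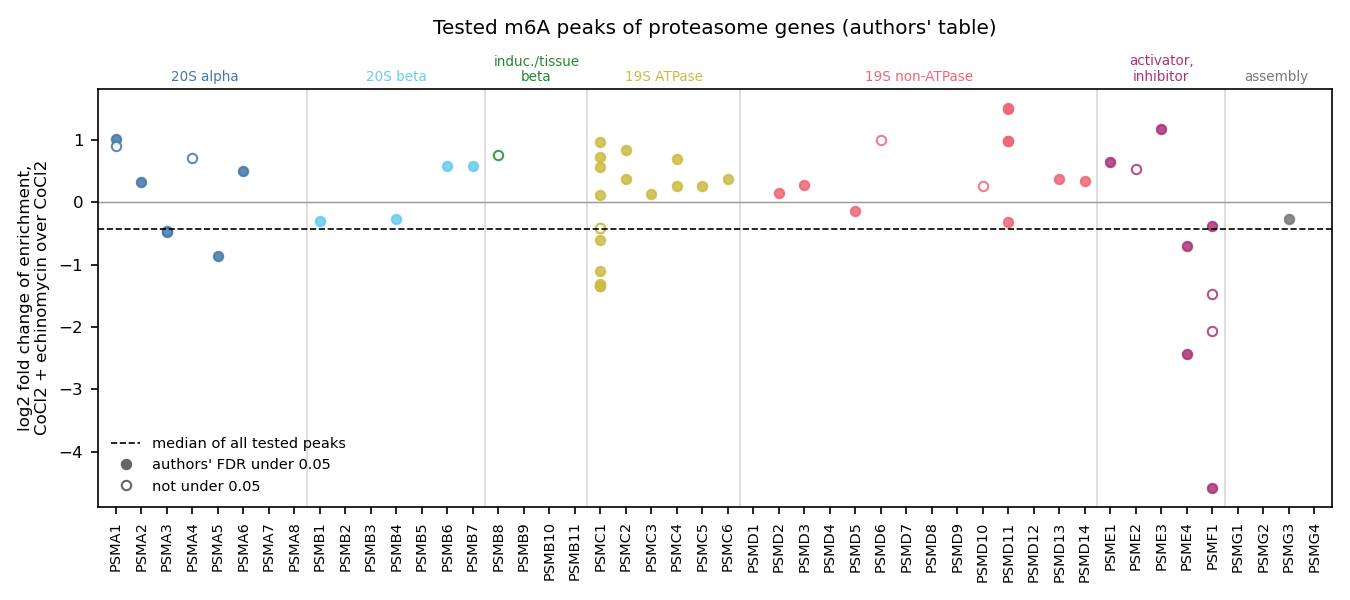
Log2 fold change of enrichment, CoCl2 with echinomycin over CoCl2, in the authors' deposited table for the 53 tested peaks by gene, 1 point per peak. Filled points had an authors' FDR under 0.05, and the dashed line is the median of all tested peaks, -0.43: most filled points lie above it, and PSMC1, PSME4 and PSMF1 reach furthest below.

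In the core particle the calls were mixed. Of 8 alpha peaks in the authors' deposited table, 3 were higher, 2 lower and 3 did not pass. The 3' UTR peak of PSMA1 (chr11:14504874-14504934) rose 2-fold, with a log2 fold change of 1.02 and a log10 FDR of -3.1 in the authors' deposited table. PSMA1 had 49.8, 47.7 and 50.3 FPKM in the input libraries. PSMA6 and PSMA2 rose, with log2 fold changes of 0.50 and 0.32, and PSMA5 and PSMA3 fell, with -0.86 and -0.46, in the authors' deposited table. The PSMA3 peak lay under ARMH4 and PSMA3-AS1 of the other strand, and the listed peak it overlaps lay on an exon of PSMA3-AS1. Of 4 constitutive beta peaks in the authors' deposited table, those of the catalytic subunits PSMB7 and PSMB6 rose, with log2 fold changes of 0.59 and 0.58. The other pair, PSMB1 and PSMB4, which have no active site, fell, with log2 fold changes of -0.31 and -0.27 in the authors' deposited table. The PSMB4 peak is the one over the start printed above.

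Of 18 ATPase peaks in the authors' deposited table, 11 were higher, 4 lower and 3 not passed. Over all tested peaks the shares were 23.1% higher and 45.8% lower. PSMC1 held all 7 ATPase peaks that were lower or did not pass. It was singled out after its values were seen, so higher calls at every tested peak of the other ATPases follow from that choice. For the 5 other ATPases, the authors' deposited table gave log2 fold changes of 0.70 (log10 FDR -20.6) and 0.26 for PSMC4, 0.84 and 0.37 for PSMC2, 0.38 for PSMC6, 0.26 for PSMC5 and 0.14 for PSMC3. The PSMC5 call lay just inside the threshold, at a log10 FDR of -1.31 in the authors' deposited table.

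Among the non-ATPase subunits, 8 of 12 peaks were higher, 2 lower and 2 not passed in the authors' deposited table, and PSMD11 accounted for 4 of the higher ones. The authors' deposited table gave further rises of 0.38 for PSMD13 (log10 FDR -11.5), 0.34 for PSMD14, 0.29 for PSMD3 and 0.15 for PSMD2 on the log2 scale, and a fall of PSMD5 by 0.13. The PSMD14 peak lay on an exon of MXRA7P1 on the other strand, and PSMD14 had 5.85 ± 0.211 FPKM, against 8.01 ± 0.433 FPKM for MXRA7P1. PSMD6 had a log2 fold change of 1 and a log10 FDR of -0.71 in the authors' deposited table, so a 2-fold difference did not pass for this peak, which lay on an exon of PSMD6-AS2.

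The activators went different ways. The 3' UTR peak of PSME3 (chr17:42839029-42841693) had the smallest FDR of all 53 peaks, with a log2 fold change of 1.18 and a log10 FDR of -53.7 in the authors' deposited table. PSME1 rose by 0.64 on the log2 scale in the authors' deposited table, at a peak under EMC9, a gene of the other strand with 10.5 ± 0.442 FPKM. PSME2, its ring partner, had 0.54 with a log10 FDR of -0.768 in the authors' deposited table, at a peak with 15.2% of its bases inside PSME2 and under RNF31 of the other strand. For PSME4 the 5' UTR peak fell by 0.70 on the log2 scale (log10 FDR -2), and an overlapping peak (chr2:53970838-53971077), with 65% of its bases inside the gene, fell by 2.44 (log10 FDR -3.22), in the authors' deposited table. ACYP2, the gene on the other strand there, had 0.793 ± 0.0914 FPKM. PSMF1 fell at 2 peaks, described below, and PSMG3, the only tested chaperone of the PSMG genes, fell by 0.26 on the log2 scale in the authors' deposited table. PSMB8, the only tested immunoproteasome subunit, had 0.77 with a log10 FDR of -0.407 in the authors' deposited table.

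PSMD11, a lid subunit that ties the regulatory particle to the core, differed along its message. It had 18.4, 16.4 and 17.2 FPKM in the input libraries. Between chr17:32477804 and chr17:32480660, 4 adjacent peaks rose in the authors' deposited table, with log2 fold changes of 0.98, 0.98, 1.52 and 1.5 and log10 FDR values of -28.9, -7.77, -14.4 and -24.2. The next peak downstream (chr17:32480779-32481735), which overlaps, among others, the PSMD11 peak with a listed fold enrichment of 3.85, fell by 0.32 on the log2 scale with a log10 FDR of -10.7 in the authors' deposited table. The 4 peaks that rose had listed fold enrichments of 2.38, 2.28, 2.59 and 1.92.

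PSMC1 held 12 listed and 11 tested peaks, more than any other proteasome gene, and had 19.9, 17.8 and 19.7 FPKM. All but its 5' UTR peak lay under NRDE2, a gene of the other strand with 2.17 ± 0.0541 FPKM, and several were listed as near copies that overlap each other. The peaks at chr14:90270409-90270559 and chr14:90272290-90272589 rose, with log2 fold changes of 0.96 and 0.73 (log10 FDR -10.4 and -24.1), in the authors' deposited table. Upstream of these, peaks at chr14:90268010-90268160 and chr14:90268610-90268730 had -0.42 and -1.31 without passing, in the authors' deposited table. Towards the end of the gene, the peaks at chr14:90273576-90274054 and chr14:90274831-90275429 fell, with log2 fold changes of -1.34 and -1.1 (log10 FDR -4.91 and -3.99) in the authors' deposited table. A peak overlapping the latter (chr14:90274817-90276256), with 42.6% of its bases inside the gene, fell by 0.61 in the authors' deposited table. The 5' UTR peak, which is not under NRDE2, had 0.12 with a log10 FDR of -2.34 in the authors' deposited table. The tables do not give the strand of a peak.

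PSMF1 gave the lowest value of the 53 peaks. A peak at chr20:1180680-1181039 fell by 4.58 on the log2 scale (log10 FDR -3.73) in the authors' deposited table. It overlapped no listed peak of the combined treatment and lay under TMEM74B, a gene of the other strand with 0.107 ± 0.0835 FPKM. Its main 3' UTR peak (chr20:1165315-1165914), under no gene of the other strand, fell by 0.38 (log10 FDR -3.99), and 2 other peaks had -1.47 and -2.07 without passing, in the authors' deposited table.

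**Figure D4:**
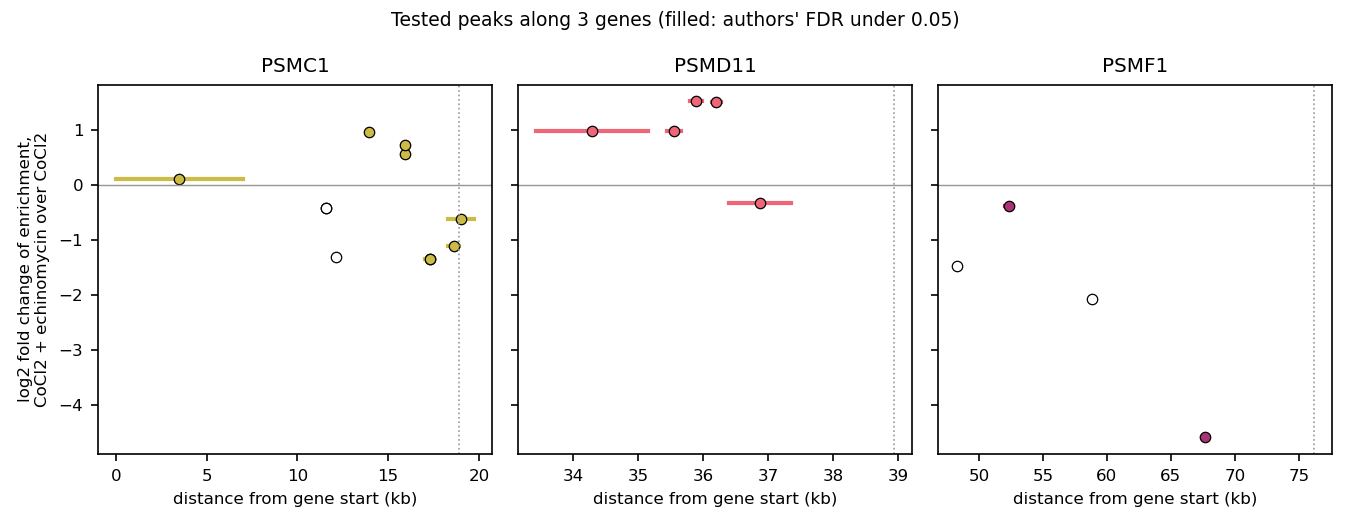
Log2 fold change of enrichment, CoCl2 with echinomycin over CoCl2, in the authors' deposited table for the tested peaks of PSMC1, PSMD11 and PSMF1 against distance from the gene's start in kilobases, with bars for the extent of a peak and dotted lines at the gene's end. Filled points had an authors' FDR under 0.05: in PSMD11 4 adjacent peaks lie above 0 and the last one below, and all PSMF1 points lie below 0. In PSMC1 the filled points that rose lie before those that fell, with open points below 0 among the former.

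Genes of the other strand lay over 19 of the 53 tested proteasome peaks (35.8%), against 24.2% of the 19606 tested peaks whose gene has a span in the expression table. The other 373 tested peaks were left out of this count. Those 19 peaks held, in the authors' deposited table, 5 higher and 8 lower calls, with a median log2 fold change of -0.46. The 34 proteasome peaks under no such gene held 21 higher and 7 lower calls (61.8% and 20.6%) in the authors' deposited table, with a median of 0.35. Over those 19606 peaks the authors' deposited table had 21.1% higher and 48.3% lower under such a gene, and 24.1% and 45.2% elsewhere. Strand-marked libraries were made, per the labels, and the sources used here do not give whether the peak calling used the strand. The part of the genes of the other strand in the calls was not tested. PSMC1 had 11 tested peaks, with 4 higher, 4 lower and 3 not passed in the authors' deposited table. All but its 5' UTR peak were among those 19, so the share of 35.8% and the counts of the 19 rest in large part on 1 gene.

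Input level moved with the calls: among other genes the authors' deposited table had 18.1% of peaks higher at 1 to 5 FPKM and 48.9% at 50 to 150 FPKM. At a mean input of 20 to 50 FPKM, 12 of 14 proteasome peaks were higher and 1 lower in the authors' deposited table, against 41.7% and 45.6% for other genes. The median log2 fold change there was 0.59 for proteasome peaks, against -0.13 for other genes, in the authors' deposited table. At 10 to 20 FPKM the counts were 11 higher and 9 lower of 29 in the authors' deposited table, against 35.1% and 47.7%, with medians of 0.26 and -0.27. Of those 29 peaks, PSMC1 held 11 (4 higher, 4 lower) and PSMD11 held 5 (4 higher, 1 lower) in the authors' deposited table. At 5 to 10 FPKM only 1 of 7 was higher and 4 were lower in the authors' deposited table, against 30.3% and 49.7%, with medians of -1.47 and -0.35. Those 7 peaks belong to PSMD14, PSME4 and PSMF1. At 50 to 150 FPKM, 2 of 3 were higher in the authors' deposited table, against 48.9%. The widest gap between proteasome genes and others in higher calls was at 20 to 50 FPKM. The levels are those of the input of the combined treatment alone.

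**Figure D5:**
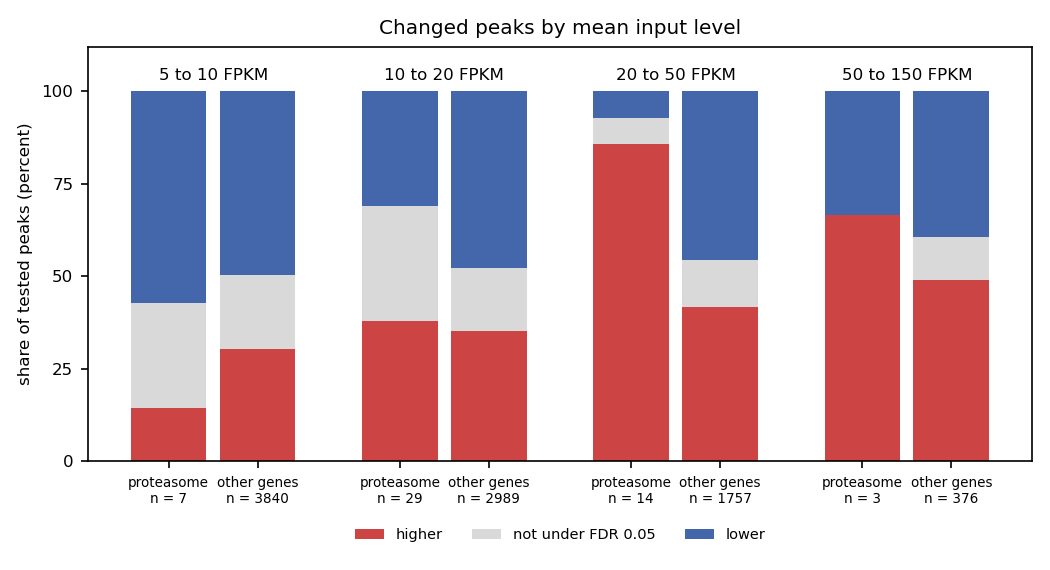
Share of tested peaks, in percent, that were higher (red), not under an authors' FDR of 0.05 (grey) or lower (blue) in CoCl2 with echinomycin over CoCl2, for proteasome genes on the left and other genes on the right of each pair, by mean input level. At 20 to 50 FPKM 12 of 14 proteasome peaks were higher, and at 5 to 10 FPKM 4 of 7 were lower.

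By annotated region, 16 of 31 proteasome peaks labelled 3' UTR were higher and 10 lower in the authors' deposited table, against 22.9% and 53.7% of all tested peaks with that label. In the 5' UTR 7 of 15 were higher and 5 lower in the authors' deposited table, against 28.1% and 43.3%. In other exons 3 of 7 were higher and none lower in the authors' deposited table, against 19% and 34.3%. Of those 7 peaks, 4 lay on an exon of another gene. The 3 higher ones were adjacent peaks of PSMD11 and the PSMD14 peak on an exon of MXRA7P1.

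Genes that serve the proteasome but fall outside the symbol rule were taken as a list of 28. All 28 had at least 1 FPKM, and 25 had a listed peak, against 79.7% of all genes at that level. Of the 28, 20 had 38 tested peaks in the authors' deposited table, of which 13 were higher (34.2%, against 23.1% of all tested peaks), 13 lower (34.2%, against 45.8%) and 12 did not pass. Each gene is given by its peak of lowest p. NFE2L1, a transcription factor that drives proteasome genes, had 147 ± 4.97 FPKM and a log2 fold change of -0.46 (log10 FDR -290) in the authors' deposited table. Its relative NFE2L2 had -0.84 (log10 FDR -79.6), with 1 peak higher, 1 lower and the rest of its 6 not passed, in the authors' deposited table. AKIRIN2, which brings proteasomes into the nucleus, fell by 0.68 on the log2 scale (log10 FDR -49.4) in the authors' deposited table. The ubiquitin gene UBB rose, with a log2 fold change of 0.63 (log10 FDR -127) in the authors' deposited table. Among partners of the proteasome, the deubiquitinase USP14 fell by 0.74, while the ubiquitin ligase UBE3C and the VCP cofactor NPLOC4 rose by 1.45 and 1.75 on the log2 scale, in the authors' deposited table. UBE3C was higher at 1 of 2 tested peaks, and NPLOC4 at 3 of 5 with 1 lower, in the authors' deposited table. No peak was listed for POMP, the chaperone of beta-ring assembly, at 11.2 ± 0.650 FPKM, or for the protease DDI2 at 8.21 ± 0.219 FPKM.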

How the data were processed

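The 6 samples, 3 IP and 3 input libraries of 1 treatment, were grouped by their titles. Per the labels' protocols, fragmented poly(A) RNA was pulled down with an m6A antibody, and the libraries were paired-end and strand-marked. The submitters' processing notes name ChIPseeker, HOMER, HISAT2 and fastp without roles or versions. The sources used here do not give the peak caller, the differential caller, the genome build or the treatment of reads shared between near-identical genes. FPKM per gene and input library was deposited by the authors, and 6 other per-sample columns were not used. Low FPKM values showed no steps of whole reads (the most common ratio between libraries took 0.746% of 2414 low genes), so the depth is unknown. In the peak list the authors gave fold enrichment as a ratio, with a p-value and a log10 FDR read as a score. For each tested peak the deposited differential list holds a log2 fold change, a p-value and a log10 FDR, also read as a score.

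The direction was set against the listed peaks: of tested peaks with a log2 fold change of -8 to -4 in the authors' deposited table, 4 of 49 shared 1 base or more with a listed peak, against 68 of 68 from 4 to 10. Repeated lines (16 and 4) were dropped. Starts in all 51 RefSeq windows of GRCh38.p14 lay inside the gene's span in the FPKM table, whose build is not named. The gene rule, the lists of pathway genes and cell markers and the rule for named genes (the highest and lowest of each role, the 5 highest fold enrichments, changes of 2-fold or more, and every changed peak) were chosen with earlier results of these data known. Some genes of the pathway list are not reported here by name. Alternatives were other limits on FPKM, FDR and fold, 1 peak per gene, peaks of other genes left out, and each replicate left out. Functions were tested on simulated data. Python 3.11.15 was used with matplotlib 3.10.9, scipy 1.17.1, pandas 2.3.3 and numpy 2.4.6.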

Additional observations from a re-analysis of the deposited data

How the results depend on the processing

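The share of proteasome genes with a listed peak was 88.9% and became 75.6% when a fold enrichment of 2 or more was asked for. Leaving out each input replicate in turn gave 88.9%, but the peaks were not called anew, so only the FPKM limit could move it. The median input level was 19.1 FPKM over genes of at least 1 FPKM and 18.3 FPKM without any 1 replicate, against 18.2 FPKM. In the authors' deposited table, 26 higher and 15 lower peaks became 4 and 5 at 2-fold or more, so higher calls no longer outnumbered lower ones. Those 5 include overlapping copies of 1 PSMC1 site (chr14:90273576-90274054 and chr14:90273587-90274067), so no excess of lower calls is read from them. Lower peaks became 8 with 1 peak per gene of lowest p, among 31, and 7 with peaks under a gene of the other strand left out, among 34. This last setting, leaving out PSMC1 and removing overlapping or misplaced peaks were chosen after seeing the data. The higher count was 18 to 25 under the 6 other settings, and the median log2 fold change stayed at 0.26 to 0.38 under 8 settings in the authors' deposited table. The median fold enrichment was 2.59 to 3.23 under 5 settings. No paired analysis was possible because the lists give 1 value per peak with no replicate values, although IP and input libraries share replicate numbers. Groups of 3 libraries are too small for the search for outlying samples. Depth could not be set beside any value.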
